A study of Mus musculus with 12 samples.

Results

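The genes described here are 10 genes of muscle atrophy and autophagy: Fbxo32, Trim63, Foxo1, Foxo3, Ulk1, Map1lc3a, Map1lc3b, Gabarapl1, Sqstm1 and Bnip3. They were taken by symbol from the 16514 genes of 4 deposited tables, and all 10 were listed in every table and passed the filter on low values. RNA had been sequenced from hearts of male C57Bl/6J mice, 12 weeks old. All mice ate a diet with 1% propionate, a short-chain fatty acid whose CoA ester is a product of isoleucine and valine breakdown. The control diet held all essential amino acids, with the branched-chain amino acids (BCAA: leucine, isoleucine and valine) at chow-like levels. The BCAA-free diet held no BCAA. After 4 days on the diet, mice underwent sham surgery or transverse aortic constriction (TAC), which narrows the aortic arch and loads the left ventricle with pressure, and hearts were taken after 1 week with no change of diet. Each diet had a sham and a TAC group, and each of the 4 groups (written below as control sham, control TAC and so on) had 3 libraries. None of these groups ate a diet without propionate. Whether each library is a mouse of its own is not stated in the labels. The p-values therefore measure only spread between libraries, and that spread may be technical.

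Muscle cells remove protein through the proteasome and through the lysosome. Atrogin-1 (Fbxo32) and MuRF1 (Trim63) are muscle ubiquitin ligases that mark proteins for the proteasome, and their genes are textbook targets of the FOXO transcription factors, which insulin and growth factors hold inactive through AKT. In autophagy, the kinase ULK1 starts a membrane that grows around cargo, proteins of the ATG8 family (the LC3 and GABARAP proteins) are attached to this membrane, and receptors such as p62 (Sqstm1) and BNIP3 tie cargo to it. The amino acid sensor mTORC1 restrains ULK1 when amino acids, leucine above all, are plentiful, and the energy sensor AMPK activates it. In the heart these systems take part in the turnover of sarcomeres and mitochondria and in remodelling under load. The values below are RNA levels: protein, ubiquitin marks and the rate of autophagy were not measured.

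The libraries held 29929161 to 46101244 reads in listed genes. All 10 cardiomyocyte markers were detected in every library, with summed levels of 93148 to 109395 CPM (reads scaled to a common library total). In liver or RNA polymerase III transcripts, 2 of the 12 libraries differed from the rest. Control TAC replicate 3 held 6668 reads of the liver gene Alb, against 0 to 3 in the other libraries with a value, and its liver marker list summed to 270 CPM against 6.17 to 25.6 CPM elsewhere. Control TAC replicate 2 held 122 CPM of the RNA polymerase III transcripts Rn7sk, Rmrp and Rpph1, against 1.59 to 26.3 CPM in the other libraries. Results that use the control TAC group were therefore also computed with both left out, an alternative chosen after seeing the data. It leaves 1 control TAC library, which is assumed to vary like the other groups. Other marker lists varied too. BCAA-free TAC replicate 2 held 68.4 CPM of the adipocyte list, against 6.93 to 26.6 CPM in the other libraries. Erythroid markers summed to 274 to 776 CPM in BCAA-free TAC libraries and 441 to 565 CPM in those of the other groups. The BCAA-free TAC libraries were left out only 1 at a time.

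Promoters are shown for Trim63, Bnip3 and Map1lc3b, to let the reader see the DNA in front of a ligase gene, a receptor gene and an ATG8 gene. RefSeq's promoter table for GRCm38.p6 matched 8 of the 10 genes, leaving Fbxo32 and Map1lc3a. Each window runs from 250 bases before to 50 bases after the start that RefSeq's table gives, printed 5′ to 3′ on the gene's strand. Capitals mark a match on either strand to the FOXO-binding element GTAAACA (reverse TGTTTAC), the insulin response element CAAAACA (reverse TGTTTTG) or the E-box CACGTG, the core of the element bound by the lysosomal regulator TFEB. The windows were chr4:134314870-134315169 (plus strand) for Trim63, chr7:138909457-138909756 (minus strand) for Bnip3 and chr8:121590188-121590487 (plus strand) for Map1lc3b. RefSeq's start differs from the gene boundary printed further on for Bnip3 and Map1lc3b.
Trim63: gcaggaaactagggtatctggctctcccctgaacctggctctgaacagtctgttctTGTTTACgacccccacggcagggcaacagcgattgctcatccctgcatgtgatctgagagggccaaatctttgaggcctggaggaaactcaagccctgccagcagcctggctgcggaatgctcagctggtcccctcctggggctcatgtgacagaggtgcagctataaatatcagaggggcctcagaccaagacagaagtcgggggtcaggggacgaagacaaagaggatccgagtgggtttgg
Bnip3: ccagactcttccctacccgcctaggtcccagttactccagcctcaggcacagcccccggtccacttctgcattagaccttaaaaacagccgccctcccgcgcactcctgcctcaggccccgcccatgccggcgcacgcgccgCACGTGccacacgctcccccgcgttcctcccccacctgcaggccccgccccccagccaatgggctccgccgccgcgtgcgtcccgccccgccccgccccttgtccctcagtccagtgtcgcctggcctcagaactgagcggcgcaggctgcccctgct
Map1lc3b: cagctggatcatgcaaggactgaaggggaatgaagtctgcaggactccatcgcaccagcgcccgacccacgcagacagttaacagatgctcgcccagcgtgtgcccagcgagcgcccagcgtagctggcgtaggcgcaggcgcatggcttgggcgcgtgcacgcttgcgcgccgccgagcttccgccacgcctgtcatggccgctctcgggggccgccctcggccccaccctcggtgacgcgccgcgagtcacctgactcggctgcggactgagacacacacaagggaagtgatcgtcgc
The Trim63 window held 1 FOXO-binding element, at position -194 from the start, and the Bnip3 window 1 E-box, at -108. None of the 3 motifs was found in the Map1lc3b window or in those of Foxo1, Foxo3, Ulk1, Gabarapl1 and Sqstm1, which says only that these letters are not in these windows. Among all 32851 mouse promoters in the table, 3.65% held the FOXO-binding element, 6.28% the insulin response element and 7.15% the E-box. A match is a description of the sequence and was not tested as a binding site.

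The changes among the 10 genes were modest, and which genes passed differed between comparisons. With TAC, Fbxo32 and Map1lc3b were called lower on the control diet and Sqstm1 higher on the BCAA-free diet. The difference between the TAC responses on these diets did not pass in limma for any of the 10 genes. Its adjusted p was 0.541 for Fbxo32, 0.281 for Map1lc3b and 0.211 for Sqstm1. In TAC hearts the LC3 genes Map1lc3a and Map1lc3b were called higher on the BCAA-free diet. Each of these calls between groups was lost when certain single libraries were left out. Averaged over both surgeries, the BCAA-free diet raised Map1lc3a, Map1lc3b and Bnip3, each by 20.8% to 24.8%. Trim63, Foxo1, Foxo3, Ulk1 and Gabarapl1 did not pass in any of the 7 comparisons fitted (4 between groups, the TAC and diet effects averaged, and the difference between the TAC responses). Comparisons that share a group are not independent of each other. Levels below are reads scaled jointly over the 12 libraries, given as mean ± SD over 3 libraries. Differences are log2 values with their standard error from limma, with p-values adjusted over all genes tested and a threshold of 0.05.

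Between genes, levels can be compared only per length of exon. On that scale, in scaled reads per kilobase averaged over 12 libraries, Map1lc3a was the highest at 14159 and Sqstm1 followed at 5161. Trim63 stood at 3042, Gabarapl1 at 2120, Bnip3 at 1892 and Map1lc3b at 1106. Fbxo32 (887), Foxo3 (516), Ulk1 (497) and Foxo1 (107) were lowest. The LC3 gene Map1lc3a was thus higher per kilobase than Map1lc3b in every library (at least 11706 against at most 1292). The FOXO genes and Ulk1 had the lowest values of the set. The length used was that of all annotated exons merged, 1181 bases for Map1lc3a and 7517 for Map1lc3b. In scaled reads, without division by length, these 2 genes averaged 16722 and 8312. Which transcripts the hearts used was not tested, so the order of genes per kilobase rests on these lengths. Across groups, the highest group mean of a gene was 1.12 times (Ulk1) to 1.33 times (Map1lc3b) its lowest. The span from the highest to the lowest gene was far larger, though some genes, such as Foxo3 and Ulk1, stood close together.

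**Figure D1:**
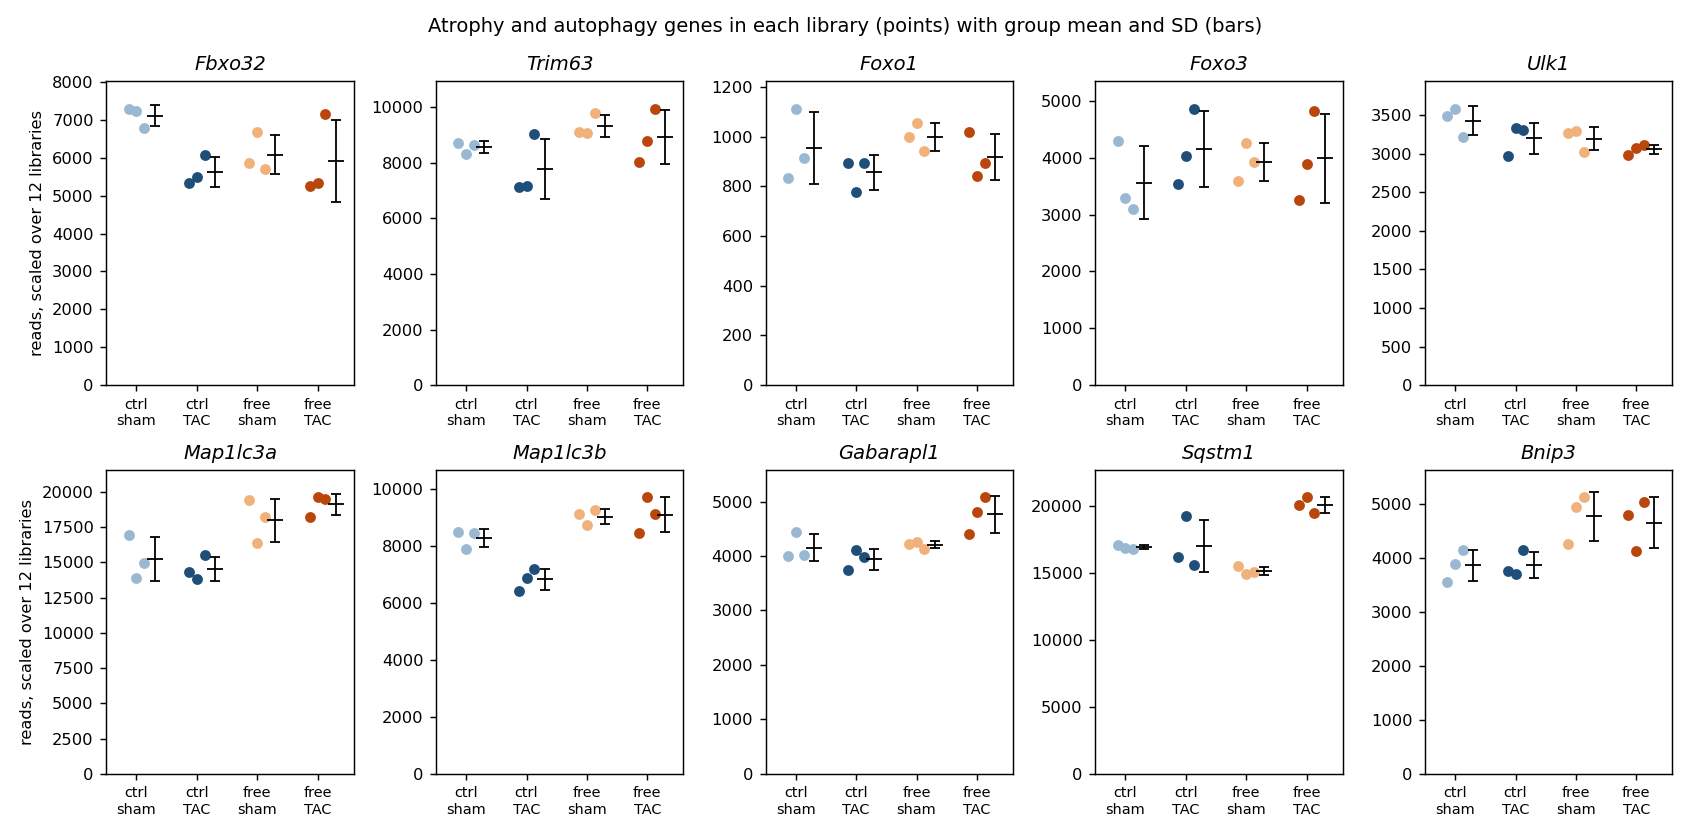
Reads of each of the 10 genes, scaled jointly over 12 libraries (y axis, from 0), by diet and surgery (x axis; ctrl, control diet; free, BCAA-free diet). Points are libraries, and bars are the mean and SD of 3 libraries; for Sqstm1 the 3 BCAA-free TAC libraries (19501 to 20678) lie above all others, and for Map1lc3b the 3 control TAC libraries (6438 to 7178) lie below all others.

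Fbxo32, the atrogin-1 gene (ENSMUSG00000022358, chr15:58175879-58214932, minus strand, GRCm38), had its highest mean in control sham hearts. Control sham libraries held 7300, 7244 and 6788 scaled reads, and control TAC libraries 5336, 5483 and 6070. The groups did not overlap. On the control diet Fbxo32 fell by 20.8% with TAC (log2 -0.34 ± 0.07, n = 3 per group, limma adjusted p = 0.0251). Fbxo32 and Map1lc3b were the 2 of 10 members called in this comparison, beside 5.34% of all 15873 genes tested (3.40% were called higher and 1.94% lower). They were also the 2 members whose groups did not overlap, beside 28.0% of all genes (13.6% were lower). The Fbxo32 call was lost when any 1 library other than control TAC replicate 3 was left out (adjusted p = 0.0510 to 0.0914) and in 1 fit over all 12 libraries (0.0605), but it held without both control TAC replicates 2 and 3 (log2 -0.41, adjusted p = 0.0405).

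On the BCAA-free diet, sham libraries held 5875, 6682 and 5705 Fbxo32 reads and TAC libraries 5250, 5337 and 7153. BCAA-free sham libraries all lay below control sham libraries, but the difference of -0.23 ± 0.07 did not pass (adjusted p = 0.101). The TAC difference on the BCAA-free diet was -0.05 ± 0.11 (95% interval -0.30 to 0.20), with 1 TAC library above all sham libraries. The TAC differences on the 2 diets differed by 0.29 ± 0.15, which did not pass (limma adjusted p = 0.541). Averaged over diets, the TAC difference was -0.19 ± 0.07 (adjusted p = 0.0847). Without BCAA-free TAC replicate 3, the highest Fbxo32 library of its group, the averaged difference was -0.27 and passed (adjusted p = 0.00447).

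Trim63, the MuRF1 gene (ENSMUSG00000028834, chr4:134315120-134329629, plus strand), did not pass in any comparison. Control sham libraries held 8719, 8319 and 8648 reads, and control TAC libraries 7148, 7152 and 9023. BCAA-free sham libraries held 9106, 9077 and 9804 and BCAA-free TAC libraries 8024, 8772 and 9953. Of the control TAC libraries, 2 lay below all control sham libraries and the third, the one with liver RNA, lay above them. The TAC difference was -0.15 on the control diet (95% interval -0.35 to 0.06) and -0.07 on the BCAA-free diet (-0.25 to 0.12). The BCAA-free diet gave 0.12 ± 0.05 in sham hearts, where the groups did not overlap (adjusted p = 0.261), 0.21 ± 0.11 in TAC hearts (adjusted p = 0.356) and 0.16 ± 0.07 on average (adjusted p = 0.117). The averaged value passed without control TAC replicate 3 (0.22, adjusted p = 0.0274) and without BCAA-free TAC replicate 1 (0.20, adjusted p = 0.0425). Across the 12 libraries and 11903 genes with a mean of at least 50, the patterns most like Fbxo32 were those of Flt1 (Pearson r = 0.91), Trim56 (0.88) and Msh3 (0.88), and those most like Trim63 were Zer1 (0.93), Smim8 (0.92) and Yipf7 (0.91). These correlations describe libraries that share their groups and scaling. They were picked as the highest among many genes over few libraries, which by itself gives high values.

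The FOXO genes themselves did not pass in any comparison. Foxo1 (ENSMUSG00000044167, chr3:52268336-52353221, plus strand) ranged from 776 to 1112 reads over the 12 libraries. Control TAC libraries (776 to 896) lay below BCAA-free sham libraries (941 to 1054), and the groups overlapped in each of the 4 comparisons made. Its intervals were -0.40 to 0.11 for TAC on the control diet, -0.32 to 0.08 for TAC on the BCAA-free diet, -0.15 to 0.30 for the diet in sham hearts and -0.12 to 0.32 for the diet in TAC hearts. Foxo3 (ENSMUSG00000048756, chr10:42181841-42276755, minus strand) varied more between libraries of a group, with 4289, 3299 and 3093 reads in control sham and 3544, 4040 and 4865 in control TAC hearts. In BCAA-free hearts Foxo3 held 3593, 4266 and 3920 reads after sham and 3260, 3886 and 4821 after TAC. Its difference with TAC on the control diet was 0.23 ± 0.14 (95% interval -0.08 to 0.53, adjusted p = 0.376). FOXO activity is set largely by phosphorylation and location in the cell, which RNA levels do not show.

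Ulk1, the kinase that starts autophagosome formation (ENSMUSG00000029512, chr5:110784488-110810097, minus strand), varied least between groups. Its libraries ranged from 2972 to 3587 reads, and the group means were, from the highest, 3433 ± 193 (control sham), 3204 ± 202 (TAC on the same diet), 3199 ± 149 (BCAA-free sham) and 3060 ± 62.0 (BCAA-free TAC). All neighbours in this order overlapped. The averaged TAC difference was -0.08 (95% interval -0.18 to 0.02) and the averaged diet difference -0.08 (-0.18 to 0.02).

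The ATG8 genes of the LC3 type were lowest in control TAC hearts and highest in BCAA-free hearts. Map1lc3b (ENSMUSG00000031812, chr8:121590361-121598760, plus strand) codes for LC3B, the protein most used as a mark of autophagosomes. Control sham libraries held 8499, 7911 and 8444 reads, and control TAC libraries 6438, 6865 and 7178. BCAA-free sham libraries held 9116, 8742 and 9251, and BCAA-free TAC libraries 8469, 9712 and 9114. The control TAC libraries lay below all 9 others, while the BCAA-free groups overlapped each other. On the control diet Map1lc3b fell by 17.5% with TAC (log2 -0.28 ± 0.06, n = 3 per group, limma adjusted p = 0.0402). On the BCAA-free diet the TAC difference was 0.01 ± 0.07 (95% interval -0.14 to 0.16). The difference between these responses, 0.29 ± 0.09, did not pass when adjusted over all genes (adjusted p = 0.281). Averaged over diets, the TAC difference of -0.13 ± 0.05 did not pass in limma (adjusted p = 0.0584) and passed in DESeq2 (0.0353), after quantile normalization (0.0158) and without BCAA-free TAC replicate 2 (0.0351).

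The diet contrast in TAC hearts gave the largest differences of the LC3 genes. Map1lc3b rose on the BCAA-free diet by 33.6% (log2 0.42 ± 0.08, n = 3 per group, limma adjusted p = 0.0241) and Map1lc3a, the LC3A gene (ENSMUSG00000027602, chr2:155276297-155278073, plus strand), by 32.0% (0.40 ± 0.08, adjusted p = 0.0244). These were the 2 of 10 members called in this comparison, beside 3.38% of all 16222 genes tested (1.27% were called higher and 2.11% lower). Map1lc3a libraries held 14282, 13825 and 15500 reads in control TAC hearts and 18218, 19611 and 19498 in BCAA-free TAC hearts, without overlap. In sham hearts they held 16956, 13886 and 14929 on the control diet and 19413, 16354 and 18191 on the BCAA-free diet. In sham hearts the groups overlapped and the difference of 0.24 ± 0.08 did not pass (adjusted p = 0.150). On the scale of the table of this comparison, 5 of the 10 members were higher in all BCAA-free TAC libraries than in all control TAC libraries (Map1lc3a, Map1lc3b, Gabarapl1, Sqstm1 and Bnip3), beside 12.6% of all genes. On the joint scale the Bnip3 groups overlapped and the other 4 did not, and the median difference of the members was 0.23 beside 0.00 over all genes.

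Each LC3 call between 2 groups depended on single libraries. For the diet in TAC hearts, Map1lc3a and Map1lc3b were called with BCAA-free TAC replicate 1 left out but with none of the other 5 libraries left out (adjusted p = 0.0505 to 0.139 for Map1lc3a and 0.0564 to 0.111 for Map1lc3b). Without both control TAC replicates 2 and 3 the differences were 0.43 and 0.51 and did not pass (adjusted p = 0.264 and 0.195, where 0 of all genes were called), and after quantile normalization Map1lc3a did not pass (0.28, adjusted p = 0.0575). The fall of Map1lc3b with TAC on the control diet was called with control sham replicate 2 left out (adjusted p = 0.0491), with none of the other 5 libraries left out (0.0514 to 0.135), and not by edgeR (0.0519) or without both control TAC libraries (-0.36, adjusted p = 0.0594).

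Averaged over sham and TAC hearts, which uses all 12 libraries, both LC3 genes rose on the BCAA-free diet. Map1lc3a rose by 24.8% (log2 0.32 ± 0.06, limma adjusted p = 0.00437) and Map1lc3b by 20.8% (0.27 ± 0.05, adjusted p = 0.00294). With Bnip3, these were 3 of 10 members that rose, beside 11.8% of all 15458 genes tested (5.19% were called higher and 6.57% lower), and all 3 were called under each of the 19 alternatives, among them each single library left out and both control TAC libraries left out. The members' median was 0.12 and that of all genes 0.01.

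Gabarapl1 codes for a GABARAP-type ATG8 protein (ENSMUSG00000030161, chr6:129533160-129542346, plus strand). Control sham libraries held 3998, 4440 and 4024 reads and control TAC libraries 3736, 4117 and 3977. BCAA-free sham libraries held 4227, 4258 and 4134 and BCAA-free TAC libraries 4405, 4810 and 5077. The BCAA-free TAC group lay above the BCAA-free sham and control TAC groups. With TAC on the BCAA-free diet the difference was 0.18 ± 0.07 (adjusted p = 0.159), with the diet in TAC hearts 0.28 ± 0.08 (adjusted p = 0.0919), and with the diet on average 0.15 ± 0.05 (adjusted p = 0.0597). The authors' deposited table gave the diet difference in TAC hearts an adjusted p of 0.0397, DESeq2 here gave 0.0377, and leaving out BCAA-free TAC replicate 1 gave 0.0392. The other ATG8 genes, Gabarap and Gabarapl2, rose in the same contrast (0.37 ± 0.07, adjusted p = 0.0231, and 0.34 ± 0.07, adjusted p = 0.0371). Thus 4 of the 5 ATG8 genes listed passed, beside 3.38% of all genes (1.27% were called higher), and the fifth was Gabarapl1. All 4 calls depended on single libraries, as given above for the LC3 genes. The Gabarap call was lost without control TAC replicate 2 or 3 or BCAA-free TAC replicate 2, and the Gabarapl2 call also without control TAC replicate 1 or BCAA-free TAC replicate 3 (highest adjusted p = 0.126 and 0.145).

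**Figure D2:**
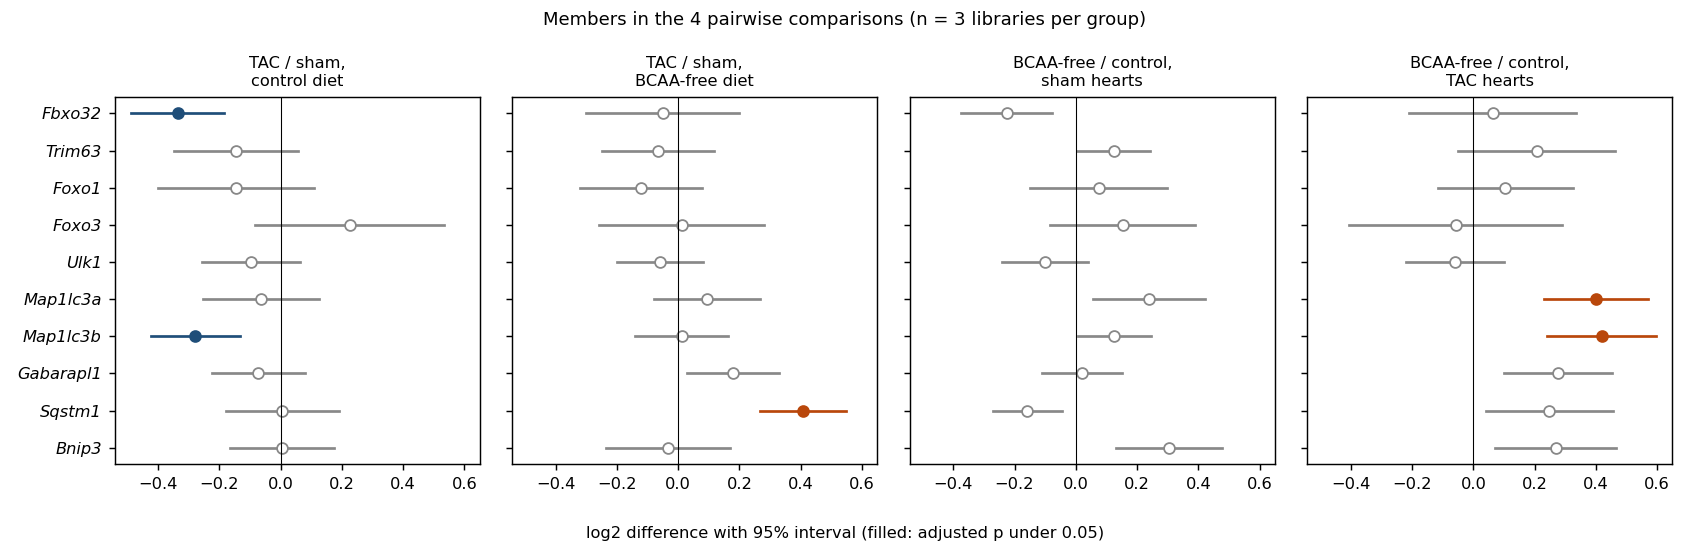
Log2 differences (x axis) of the 10 genes (rows) in the 4 comparisons between 2 groups, with 95% intervals from limma; n = 3 libraries per group. Filled points passed an adjusted p of 0.05: Fbxo32 and Map1lc3b with TAC on the control diet, Sqstm1 with TAC on the BCAA-free diet, and Map1lc3a and Map1lc3b with the diet in TAC hearts.

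Sqstm1 had the largest TAC difference of the 10 genes, called on the BCAA-free diet and not on the control diet, but the difference between the diets did not pass in limma. The gene codes for p62, a receptor that binds ubiquitin on cargo and LC3 on the membrane, and is itself degraded by autophagy (ENSMUSG00000015837, chr11:50199366-50210827, minus strand). BCAA-free sham libraries held 15520, 14909 and 15110 reads and BCAA-free TAC libraries 20128, 20678 and 19501. Sqstm1 rose with TAC on this diet by 32.7% (log2 0.41 ± 0.06, n = 3 per group, limma adjusted p = 0.00829). It was the 1 of 10 members called, beside 4.32% of all 15936 genes tested (2.94% were called higher and 1.37% lower), and with Gabarapl1 1 of 2 members without overlap, both higher, beside 26.7% of all genes (14.0% were higher). The call was lost with any 1 of the 3 BCAA-free sham libraries left out (adjusted p = 0.0528 to 0.0603), while the difference stayed between 0.39 and 0.43.

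On the control diet Sqstm1 held 17106, 16897 and 16817 reads in sham hearts and 16251, 19268 and 15647 in TAC hearts. The TAC libraries spread on both sides of the tight sham group, and the high one was the library rich in polymerase III transcripts. The TAC difference was 0.01 ± 0.08 (95% interval -0.18 to 0.19). Leaving out control TAC replicate 2 gave -0.09, and leaving out replicate 3 as well gave -0.06. The difference between the TAC responses, tested over all 12 libraries, was 0.40 ± 0.10 (unadjusted p = 0.00136, limma adjusted p = 0.211, 95% interval 0.19 to 0.62). It was called by DESeq2 (adjusted p = 0.0372) and not by edgeR (0.221), and it was 0.25 after quantile normalization (0.402). No member passed this test in limma, where 7 of 15524 genes did (0.0451%, with 0.00644% higher and 0.0386% lower), 1568 had an unadjusted p under 0.05, and edgeR called 5 and DESeq2 109 genes. Averaged over diets, Sqstm1 rose with TAC by 15.4% (log2 0.21 ± 0.05, adjusted p = 0.0136), the 1 member called beside 17.0% of all genes tested (9.67% were called higher and 7.29% lower), and it was called under all 19 alternatives.

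The diet differences of Sqstm1 had opposite signs in sham and TAC hearts, and neither passed. In sham hearts the BCAA-free libraries all lay below the control libraries (-0.16 ± 0.05, adjusted p = 0.128). In TAC hearts they all lay above (0.25 ± 0.09, adjusted p = 0.180, and 0.10 after quantile normalization). The order of the group means was, from the lowest, 15180 ± 312 (BCAA-free sham), 16940 ± 149 (control sham), 17055 ± 1940 (control TAC) and 20102 ± 589 (BCAA-free TAC), and the 2 control groups overlapped.

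Bnip3 codes for a receptor on the outer mitochondrial membrane that is induced by low oxygen and takes part in mitophagy (ENSMUSG00000078566, chr7:138890836-138909519, minus strand). Its BCAA-free groups were the higher ones, and its TAC differences were near 0. Control sham libraries held 3558, 3880 and 4139 reads and control TAC libraries 3756, 3700 and 4134. BCAA-free sham libraries held 4255, 4934 and 5116 and BCAA-free TAC libraries 4788, 4128 and 5029. All BCAA-free libraries but 1 lay above all control libraries. Averaged over surgery, Bnip3 rose on the BCAA-free diet by 21.9% (log2 0.29 ± 0.06, limma adjusted p = 0.0103). The TAC difference was 0.00 ± 0.07 on the control diet (95% interval -0.16 to 0.17) and -0.03 ± 0.09 on the BCAA-free diet (-0.24 to 0.17).

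Within sham hearts alone, 0 of the 10 members passed in limma, beside 2.81% of all 15596 genes tested (1.05% were called higher and 1.76% lower). Of the 10 members, 6 had an unadjusted p under 0.05, beside 18.3% of all genes, and edgeR called 0 and DESeq2 1, Bnip3. The Bnip3 difference was 0.30 ± 0.08 (limma adjusted p = 0.0650, 0.0132 by DESeq2, and 0.0145 in the authors' deposited table), and it passed without control sham replicate 3 (0.36, adjusted p = 0.0221). In 5 members the sham groups did not overlap, beside 23.2% of all genes: Trim63, Map1lc3b and Bnip3 were higher and Fbxo32 and Sqstm1 lower on the BCAA-free diet. In TAC hearts the Bnip3 difference was 0.27 ± 0.09 (adjusted p = 0.133).

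**Figure D3:**
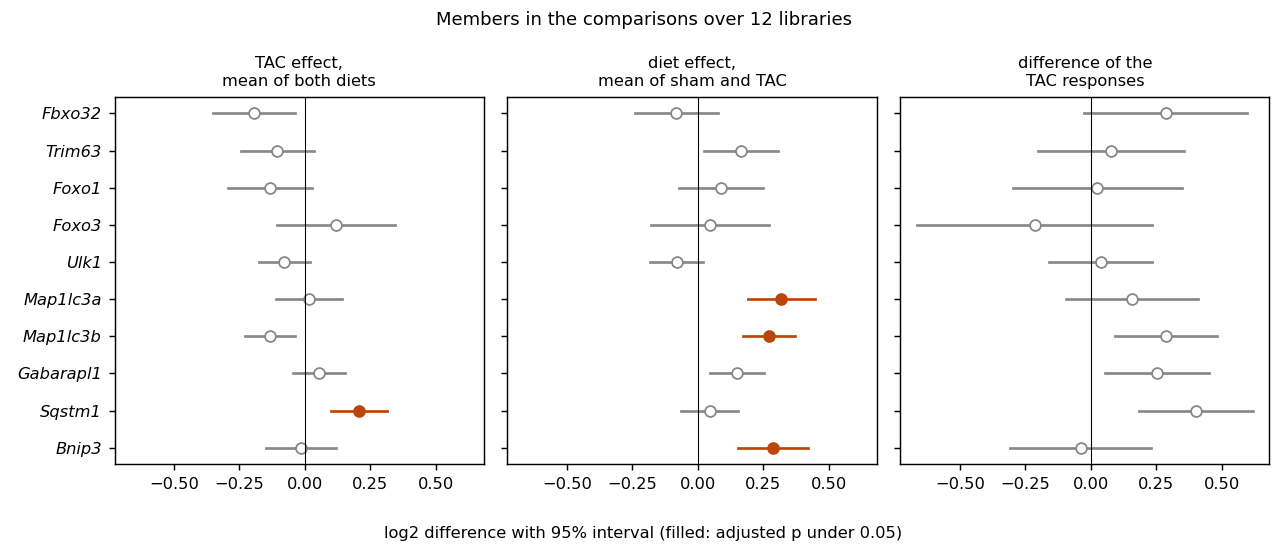
Log2 values (x axis) of the 10 genes (rows) from fits over 12 libraries, with 95% intervals from limma: the TAC effect averaged over diets, the diet effect averaged over surgeries, and the TAC effect on the BCAA-free diet minus that on the control diet. Filled points passed an adjusted p of 0.05: Sqstm1 for TAC, and Map1lc3a, Map1lc3b and Bnip3 for diet; none passed in the third panel.

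Other genes of the same pathways were followed through 7 lists with 163 genes tested. For the averaged TAC effect 27 of them were called (16.6%), beside 17.0% of all genes, so the lists as a whole stood at the background. Averaged over diets, TAC raised 4 of 25 lysosomal and TFEB-family genes and lowered none (16.0% called; median 0.08, beside 0.00 over all genes) with the lowest p-values for the protease gene Ctsb (0.38 ± 0.08), the cholesterol carrier gene Npc2 (0.24 ± 0.06) and the ganglioside-degrading enzyme gene Hexa (0.22 ± 0.06). Among FOXO target genes other than the members, 6 of 18 fell and 1 rose (38.9% called, above the 17.0% of all genes, median -0.20). Txnip, an inhibitor of thioredoxin (-0.50 ± 0.11), and the catalase gene Cat (-0.21 ± 0.05) fell, and Eif4ebp1, a repressor of translation, rose (0.51 ± 0.05, limma adjusted p = 0.000128). Of the 24 FOXO regulators, Akt2 (-0.24 ± 0.05) and Foxo4 (-0.30 ± 0.06) fell and Akt1 rose (0.19 ± 0.05), with the other 21 not called (12.5% called). In the list of ubiquitin ligases and atrophy-linked genes 2 of 29 rose, the metallothionein genes Mt2 (0.85 ± 0.17) and Mt1 (0.43 ± 0.13), and 1 fell (10.3% called). None of the ligase genes in it was called.

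Of 36 core machinery genes 3 rose with TAC and 1 fell (11.1% called, below the 17.0% of all genes; median 0.00): Atg101 of the ULK1 complex rose (0.29 ± 0.06), as did Rubcn, a brake on autophagosome maturation (0.16 ± 0.04), and Atg9a, the lipid scramblase of the growing membrane, fell (-0.16 ± 0.04). Of 16 receptor and mitophagy genes tested, 2 rose and 3 fell (31.2% called, above the 17.0% of all genes, median -0.10). The mitophagy kinase gene Pink1 fell (-0.42 ± 0.07, limma adjusted p = 0.00240), and the glycogen receptor gene Stbd1 (0.38 ± 0.08) and the mitochondrial receptor gene Fkbp8 (0.14 ± 0.04) rose. Of 15 kinase genes upstream of ULK1, Prkab1, a subunit of AMPK, fell (-0.31 ± 0.06) and none rose (6.67% called). Of the 27 pathway genes called for the averaged TAC effect, 16 were called with each single library left out and 20 without both control TAC replicates 2 and 3. Rubcn was lost without control sham replicate 1 or BCAA-free sham replicate 1 (highest adjusted p = 0.0542). Fkbp8, Hexa and Mt1 were each lost with 5 to 8 of the 12 single libraries left out (highest adjusted p = 0.0612, 0.0627 and 0.0917).

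**Figure D4:**
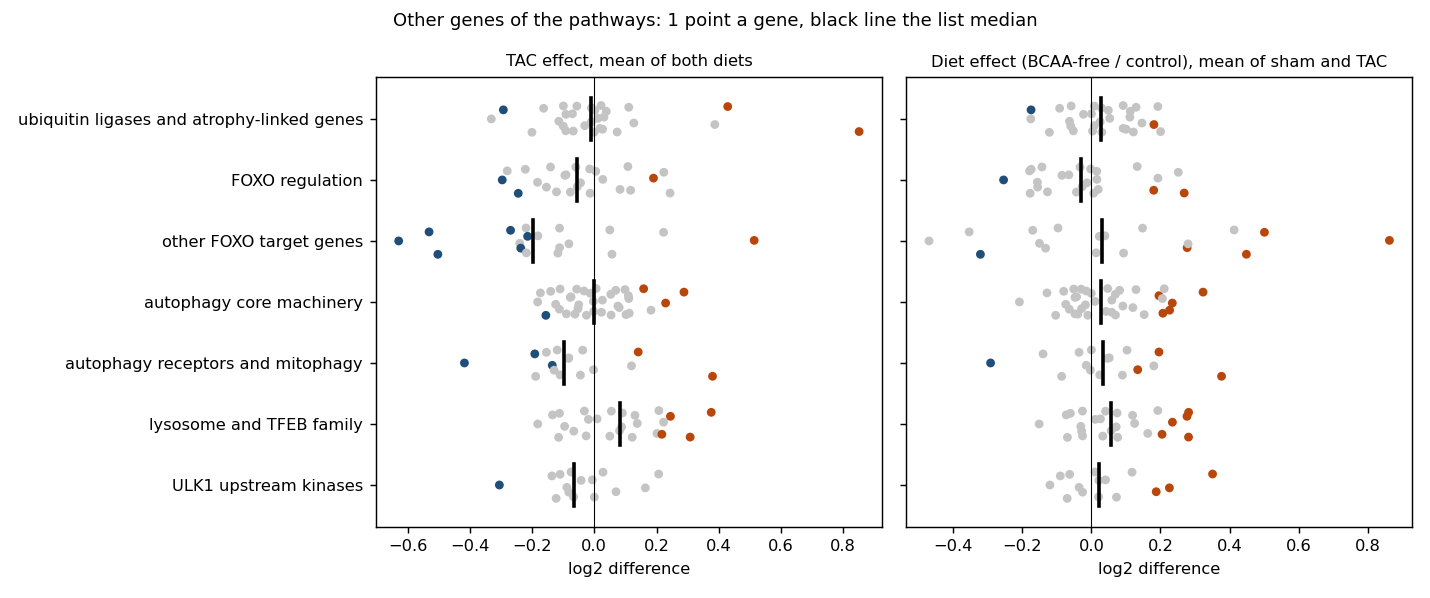
Log2 differences (x axis) of the other genes in the 7 pathway lists (rows), 1 point a gene and a black line at each list's median, for the averaged TAC effect and the averaged diet effect (BCAA-free over control). Coloured points passed an adjusted p of 0.05 (orange higher, blue lower). For the diet 5 of 25 lysosomal genes (20%) and 5 of 36 core autophagy genes (13.9%) rose and none fell, beside 11.8% of all genes called.

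With the BCAA-free diet averaged over surgeries, all core autophagy and lysosomal genes that were called rose. The share of core genes called was near that of all genes. Of 36 core genes 5 rose (13.9% called, beside 11.8% of all genes), and 19 had a positive value (median 0.03, beside 0.01 over all genes). The lowest p-values were those of Gabarap (0.23 ± 0.04), Atg9a (0.20 ± 0.04) and Atg14, a subunit of the autophagy lipid kinase complex (0.32 ± 0.07). Of 25 lysosomal and TFEB-family genes 5 rose (20% called, median 0.06). They were led by the glycogen-degrading enzyme gene Gaa (0.28 ± 0.05, limma adjusted p = 0.00277), the protease gene Ctsd (0.28 ± 0.05) and the membrane protein gene Lamp1 (0.23 ± 0.04). Of 16 receptor genes 3 rose and 1 fell (25% called, median 0.04). Pink1 (0.38 ± 0.07) and the BNIP3 relative Bnip3l (0.13 ± 0.04) rose, and Wdfy3, a scaffold for protein aggregates, fell (-0.29 ± 0.07). Of 15 upstream kinase genes 3 rose (20% called). These were the AMPK subunit genes Prkab1 (0.35 ± 0.06) and Prkag1 (0.23 ± 0.05) and the LKB1 gene Stk11 (0.19 ± 0.04). Over all 7 lists 27 of 163 genes were called (16.6%), beside 11.8% of all genes, and 5.19% of all genes were called higher.

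With the diet, 4 of 18 other FOXO targets rose and 1 fell (27.8% called, median 0.03). The lowest p-values were those of the transcription factor gene Klf2 (0.50 ± 0.07), the cell cycle inhibitor gene Cdkn1a (0.45 ± 0.08) and the cell death gene Bcl2l11 (0.86 ± 0.17). The Klf2 value averages unlike differences, 1.11 ± 0.10 in sham hearts and -0.11 ± 0.08 in TAC hearts (limma adjusted p = 0.522 in TAC hearts). Of 24 FOXO regulators 2 rose, Akt2 (0.18 ± 0.05) and the deacetylase gene Sirt1 (0.27 ± 0.07), and 1 fell (12.5% called, near the 11.8% of all genes; median -0.03). In the ligase list 1 gene rose and the glucocorticoid receptor gene Nr3c1 fell (-0.17 ± 0.05), with the other 27 genes not called (6.90% called). Of the 27 pathway genes called for the averaged diet effect, 19 were called with each single library left out and 13 without both control TAC replicates 2 and 3, where Gabarap (adjusted p = 0.0560), Cdkn1a (0.0502) and Bcl2l11 (0.0528) were among those lost. Akt2, Sirt1, Nr3c1 and Bnip3l were each lost with 4 to 10 of the 12 single libraries left out (highest adjusted p = 0.0585, 0.0583, 0.0988 and 0.105).

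In the comparisons between 2 groups fewer pathway genes passed. TAC on the control diet called 13 of 163 (7.98%, beside 5.34% of all genes), of which Txnip (-0.61 ± 0.07), Klf2 (0.67 ± 0.09) and Pdk4, a brake on glucose oxidation (-0.76 ± 0.11), were among the 4 called with each single library left out. On the BCAA-free diet 6 were called (3.68%, beside 4.32% of all genes), of which Eif4ebp1 (0.58 ± 0.06) and Mt2 (1.27 ± 0.18) were called with each single library left out. There Ctsb (0.46 ± 0.10), Npc2 (0.35 ± 0.07) and Atg101 (0.35 ± 0.08) were each lost on leaving out BCAA-free TAC replicate 2 or any 1 of the sham libraries (highest adjusted p = 0.131 to 0.154). In sham hearts the diet called 6 (3.68%, beside 2.81% of all genes), of which Klf2 (1.11 ± 0.10) was called with each single library left out. Klf2 was the 1 pathway gene called for a difference between the TAC responses (-1.22 ± 0.14, limma adjusted p = 0.00401). It rose with TAC on the control diet and fell on the BCAA-free diet (-0.55 ± 0.09), the fall being lost without BCAA-free sham replicate 1 or 2 (highest adjusted p = 0.0622). Without both control TAC libraries the Klf2 difference did not pass (-1.19, adjusted p = 0.0650).

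In TAC hearts the diet called 7 of 163 pathway genes (4.29%, beside 3.38% of all genes). Beside Gabarap and Gabarapl2 these included the lysosomal genes Ctsd (0.47 ± 0.09), Ctsl (0.43 ± 0.09) and Gaa (0.31 ± 0.07). All 7 were lost without control TAC replicate 2, control TAC replicate 3 or BCAA-free TAC replicate 2 (highest adjusted p over single libraries 0.114 to 0.190), and none passed without both control TAC libraries. Of the 25 lysosomal genes 21 were higher and the list's median was 0.10, beside 0.00 over all genes.

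Markers of cell types moved with several of these results, and in bulk RNA fewer cells of a type and less RNA per cell cannot be told apart. With TAC on the control diet, where Fbxo32 and Map1lc3b fell, 9 of 10 cardiomyocyte markers were lower but none passed (median -0.20), and summed levels were 93148 to 99981 CPM against 96291 to 98956 in sham hearts. There 1 of 10 endothelial markers was higher and 2 passed as lower (median -0.15), at 1419 to 1585 CPM against 1503 to 1851. With TAC on the BCAA-free diet, where Fbxo32 did not pass, 2 endothelial markers also passed as lower (median -0.18). With the diet in sham hearts, where Fbxo32 libraries were lower, 1 endothelial marker was higher and none passed (median -0.15). With the diet in TAC hearts, where the LC3 genes rose, 8 of 10 cardiomyocyte markers were higher and none passed (median 0.25), with summed levels of 99102 to 109395 CPM on the BCAA-free diet, while all 10 liver markers were lower and none passed (median -1.45). In the same contrast all 6 skeletal muscle markers listed were higher and 1 passed (median 0.83). Their summed levels were 2327 to 2719 CPM on the BCAA-free and 2146 to 2659 CPM on the control diet. In sham hearts 4 of these 6 markers were higher on the BCAA-free diet and none passed (median 0.24). Their sum there was lower on the BCAA-free diet, at 2086 to 2269 CPM against 2411 to 2574 CPM. With TAC on the BCAA-free diet, where Sqstm1 rose, 9 of 10 macrophage markers rose (397 to 498 CPM against 226 to 250 in sham hearts), as did 6 of 10 fibroblast markers (2350 to 3074 CPM against 1997 to 2110). The summed CPM of the macrophage list was also 328 to 533 in control TAC against 301 to 323 in control sham hearts, where Sqstm1 did not pass. In sham hearts, where Sqstm1 libraries were lower on the BCAA-free diet, 6 of 10 fibroblast and 4 of 10 macrophage markers fell. With the averaged TAC effect, where Sqstm1 and the lysosomal genes Ctsb, Npc2 and Hexa rose, all 10 macrophage markers rose (median 0.64) and so did 5 of 10 fibroblast markers. For this effect 1 fibroblast and 3 endothelial markers fell, beside 17.0% of all genes called (9.67% higher and 7.29% lower). With the averaged diet effect, 2 of 6 skeletal muscle markers (median 0.62) and 2 of 5 smooth muscle markers (median 0.55) rose. In that comparison 2 of 10 cardiomyocyte markers and 3 of 5 adipocyte markers listed rose, the latter at 13.9 to 68.4 CPM in BCAA-free and 6.93 to 25.0 CPM in control libraries. There 1 fibroblast, 1 macrophage and 2 endothelial markers fell, beside 11.8% of all genes called (5.19% higher and 6.57% lower). Between 2 groups, TAC called 5.34% of all genes on the control and 4.32% on the BCAA-free diet. The diet called 2.81% in sham and 3.38% in TAC hearts. All 10 markers of the cardiomyocyte, macrophage and fibroblast lists were listed for every library. The part of these cell types in the differences was not tested.

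Some reads could come from a gene on the other strand, since counting by strand is not given in the sources used here. Each overlap below is the longest between 1 pair of exons, so the total can be larger. Exons of Sqstm1 overlap those of Mrnip over 580 bases (17.3% of the Sqstm1 exon length). Mrnip averaged 60.1 scaled reads against over 14909 for Sqstm1 in every library. Gabarapl1 overlaps 1700101I11Rik over 377 bases (18.7%, 54.0 reads) and Fbxo32 overlaps Gm15943 over 186 bases (2.67%, 97.7 reads). The TAC difference of Gm15943 was -0.69 on the control diet and did not pass (limma adjusted p = 0.188). Averaged over diets, the Gm15943 difference was -0.58 and passed (limma adjusted p = 0.0401). Map1lc3b overlaps Zcchc14 over 58 bases (0.772%, 1747 reads). Zcchc14 did not pass in any comparison (log2 -0.08 to -0.02). Bnip3 and Foxo1 overlap Gm45507 over 342 bases (15.1%) and Gm20402 over 589 bases (6.80%), 2 antisense genes not analysed here. Metallothionein genes have near-identical relatives, and how reads shared between copies were counted is not given in the sources used here.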

How the data were processed

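Per the labels, polyA RNA of mouse hearts was sequenced in 12 libraries; the submitters' processing notes name Trimmomatic 0.36, STAR 2.5.2b, Subread 1.5.2, DESeq2 and the build GRCm38/mm10, and no source used here gives strand settings. The authors deposited 4 tables, 1 per comparison between 2 groups, of signal values per gene and library, which are read counts divided by a library factor: all values came out whole (100%, tolerance 0.001) when divided by the library's smallest step. The tables also hold the authors' deposited log2 fold changes and their p-values, used only where named.

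Differences were computed with limma 3.58.1 (R 4.3.3, intensity trend) on log2(value + 4) for genes averaging 10 or more, each comparison within its own table, with Benjamini-Hochberg adjustment over all genes tested and a threshold of 0.05. Fold changes are on the log2(value + 4) scale. The TAC effect averaged over diets and the difference between TAC responses used the 12 columns of the 2 TAC tables, and the averaged diet effect those of the 2 diet tables. Levels are recovered reads scaled by median ratios over 15567 genes. Alternatives were edgeR 4.0.16 and DESeq2 1.42.0 on recovered reads, a pseudocount of 1, no filter, quantile normalization, a block on replicate number, 1 fit over 12 libraries, and each library left out. The fits were tested on simulated data. Member genes, pathway lists and marker lists were chosen with earlier results of these data known. From each pathway list described, up to 3 genes with the lowest p-values among those that passed are named, and Gabarapl2 as an ATG8 gene. Some genes of these lists that the rule would name are not reported here. For Fbxo32 and Trim63 the 3 genes with the highest Pearson r over 12 libraries are named. Library totals limit precision little for the members, whose lowest group mean was 856 reads.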

Additional observations from a re-analysis of the deposited data

Results flagged for a closer look

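The diet differences of Sqstm1 pointed in opposite directions in the 2 surgeries. In sham hearts the log2 difference (BCAA-free over control) was -0.1579, with all BCAA-free libraries below all control libraries, and in TAC hearts it was 0.2477, with all BCAA-free libraries above all control libraries. The test of the difference between them, which equals the difference between the TAC responses on the 2 diets, gave 0.40 ± 0.10 with a limma adjusted p of 0.211, and adjusted p-values from 0.0372 (DESeq2) to 0.491 (without BCAA-free sham replicate 2) over the alternatives.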

How the results depend on the processing

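Of 1110 values of the 10 genes under an alternative, 49 changed sign, none of which passed in either fit, 30 no longer passed and 20 newly passed. For TAC on the control diet the members called went from 2 to 1 with edgeR, with the replicate block, in 1 fit over 12 libraries and without both control TAC replicates 2 and 3, and to 0 to 1 with single libraries left out. For TAC on the BCAA-free diet 1 became 0 to 1 with single libraries left out. For the diet in sham hearts 0 became 1 with DESeq2, 3 with the replicate block (Fbxo32, adjusted p = 0.0380; Map1lc3a, 0.0157; Bnip3, 0.0110) and 0 to 1 with single libraries left out. For the diet in TAC hearts 2 became 1 with quantile normalization, 4 with the block (also Gabarapl1, 0.0324, and Bnip3, 0.0411), 0 without both control TAC replicates and 0 to 3 with single libraries left out. For the difference between TAC responses 0 became 1 with DESeq2. For the averaged TAC effect 1 became 2 with DESeq2 and with quantile normalization and 1 to 2 with single libraries left out, and for the averaged diet effect 3 became 3 to 5. The cause was not tested.

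Over all genes, DESeq2 called 1548 instead of 848 genes for TAC on the control diet, 1154 instead of 688 on the BCAA-free diet, 820 instead of 438 for the diet in sham hearts, 1190 instead of 548 in TAC hearts and 109 instead of 7 for the difference between TAC responses. The block gave 713 genes for the diet in sham hearts, 1275 in TAC hearts and 3 for the difference between responses, and 1 fit over 12 libraries gave 127 and 1205 for the 2 diet comparisons. A pseudocount of 1 and quantile normalization each gave 4 genes for the difference between responses. Without both control TAC replicates, 0 genes were called for the diet in TAC hearts (1889 had an unadjusted p under 0.05), 1 for the difference between responses and 850 instead of 1819 for the averaged diet effect. With single libraries left out the counts were 300 to 659, 106 to 1199, 68 to 1020 and 138 to 1044 in the 4 comparisons between groups, 2 to 15 for the difference between responses, 1732 to 2889 for the averaged TAC effect and 1062 to 2484 for the averaged diet effect.

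The labels give the groups the same replicate numbers. Correlations of same-numbered libraries were -0.09 to 0.22 and not all above 0.1, and the main fits did not treat the numbers as pairs. With 3 libraries per group these correlations cannot exclude pairing, and the counts with a block on replicate number are given above.

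Values near 0 changed sign. Bnip3 for TAC on the control diet was -6.26e-05 with edgeR, -0.0026 with quantile normalization and -0.033 without both control TAC replicates, and there Sqstm1 was -0.056. With quantile normalization Map1lc3b for TAC on the BCAA-free diet was -0.048 and Sqstm1 for the averaged diet effect -0.021. Without both control TAC replicates the diet differences in TAC hearts were 0.16 for Foxo3 and 0.053 for Ulk1, and the difference between TAC responses of Foxo1 was -0.044. With single libraries left out, TAC on the control diet ranged from -0.13 to 0.014 for Map1lc3a, -0.086 to 0.066 for Sqstm1 and -0.052 to 0.057 for Bnip3. TAC on the BCAA-free diet ranged from -0.20 to 0.028 for Fbxo32, -0.15 to 0.0062 for Trim63, -0.14 to 0.15 for Foxo3, -0.036 to 0.062 for Map1lc3b and -0.11 to 0.050 for Bnip3. The diet in sham hearts ranged from -0.017 to 0.19 for Foxo1 and -0.0067 to 0.069 for Gabarapl1, and in TAC hearts from -0.083 to 0.15 for Fbxo32 and -0.21 to 0.082 for Foxo3. The difference between TAC responses ranged from -0.0039 to 0.19 for Trim63, -0.089 to 0.12 for Foxo1, -0.015 to 0.083 for Ulk1 and -0.12 to 0.045 for Bnip3. The averaged TAC effect ranged from -0.019 to 0.054 for Map1lc3a and -0.055 to 0.027 for Bnip3, and the averaged diet effect from -0.026 to 0.12 for Foxo3.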
